A study of Mus musculus with 11 samples.

Results

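Single-exon protein-coding genes make a messenger RNA that needs no splicing. In the exon table of this series they were the protein-coding genes whose transcript length equals their span on the chromosome, counted here if their mean over the 5 libraries was 10 or more and their symbol was not one of the current histone symbols. Of 13088 genes in the table, 12009 were protein-coding and 422 of these were single-exon. Leaving out 59 histone symbols and 48 genes with a mean under 10 left 315 members. The set is meant to hold no histone genes, but 9 of the 315 were histone genes under other symbols (H4f16, Hist1h4n, Hist1h4m, Hist1h2bp, Hist1h2bq, Hist1h2br, Hist1h2an, Hist1h2ao and Hist1h2ap). They were kept, as the rule has it, and counts without them cover 306 genes.

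Nascent RNA was measured by TT-seq, in which RNA made during a short pulse of 4-thiouridine (4sU) is fragmented, biotinylated and pulled down. The cells were F121-9, a wild-type female mouse embryonic stem cell line of CAST/129 hybrid background grown without serum in medium with LIF and MEK and GSK3 inhibitors. The tables held cells given 30 nM of siRNA against Zc3h4 (siZC3H4, replicates 2 and 3, n = 2) and cells given the same amount of non-targeting siRNA (siNT, replicates 1, 2 and 3, n = 3). Both received 500 µM 4sU for 20 minutes and were harvested 47 hours after transfection. The 3 dTAG-13 and 3 DMSO samples of a degradable ZC3H4 line are not analysed here. The labels name no separate cultures, so p-values measure the spread between these samples, which may be technical.

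ZC3H4 works with WDR82 in the Restrictor complex, which ends early transcription of noncoding units, among them upstream antisense RNAs (uaRNAs). These are short-lived transcripts that leave a promoter in the direction opposite to the gene. Splicing signals are known to favour productive elongation, and single-exon genes do without them. Many of them are retrocopies, made by reverse transcription of a spliced messenger RNA. Others belong to groups that hold genes with and without introns, such as SOX factors, frizzled receptors and immediate early genes.

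The promoters below are examples among the members named later. The uaRNAs of Mcts2, Hnrnpa0 and Jun rose. Those of Crebzf and Prmt6 fell, in calls that were lost when single libraries were left out. Exon reads of 2310039H08Rik, 4930563E22Rik and Sfn passed the test. The promoters of Kctd11, B3gnt9 and Tmem229a, with the largest uaRNA rise, uaRNA fall and exon rise, are not printed. Each line gives the 150 bases before the RefSeq start (GRCm38.p6), 5′ to 3′ on the gene's strand. That start lay 338 bases from the table's start for Sfn and 180 for 2310039H08Rik, against 6 to 74 for the others printed. The files give no coordinates for the uaRNA regions, and 4930563E22Rik and Sfn had no tested uaRNA. Capitals mark, on either strand, the TATA box (TATAAA), the CCAAT box, an SP1 box (GGGCGG), an ETS core (CCGGAAG), a cyclic AMP response element (TGACGTCA), a 5′ splice site (GTAAGT) or a polyadenylation signal (AATAAA).
Mcts2, chr2:152686998-152687147, plus strand: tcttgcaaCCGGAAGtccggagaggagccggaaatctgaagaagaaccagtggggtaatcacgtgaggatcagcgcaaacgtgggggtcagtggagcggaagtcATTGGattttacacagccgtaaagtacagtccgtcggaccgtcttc
Hnrnpa0, chr13:58128557-58128706, minus strand: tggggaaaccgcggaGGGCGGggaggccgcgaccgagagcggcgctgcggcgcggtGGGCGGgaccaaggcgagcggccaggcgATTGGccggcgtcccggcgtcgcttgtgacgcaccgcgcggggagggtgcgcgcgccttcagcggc
Jun, chr4:95052223-95052372, minus strand: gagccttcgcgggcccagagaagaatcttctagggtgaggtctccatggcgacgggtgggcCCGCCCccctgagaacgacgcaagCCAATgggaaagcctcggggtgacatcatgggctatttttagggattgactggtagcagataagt
Crebzf, chr7:90442631-90442780, plus strand: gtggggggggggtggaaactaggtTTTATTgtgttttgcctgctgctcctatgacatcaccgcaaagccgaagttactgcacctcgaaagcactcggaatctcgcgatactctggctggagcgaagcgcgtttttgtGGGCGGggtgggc
Prmt6, chr3:110251000-110251149, minus strand: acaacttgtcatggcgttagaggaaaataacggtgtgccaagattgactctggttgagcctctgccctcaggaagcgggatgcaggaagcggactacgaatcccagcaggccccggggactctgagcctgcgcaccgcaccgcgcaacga
2310039H08Rik, chr17:46772485-46772634, plus strand: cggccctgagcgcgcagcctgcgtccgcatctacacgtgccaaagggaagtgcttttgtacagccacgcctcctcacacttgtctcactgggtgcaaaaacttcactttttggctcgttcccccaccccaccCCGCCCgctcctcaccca
4930563E22Rik, chr11:72214988-72215137, plus strand: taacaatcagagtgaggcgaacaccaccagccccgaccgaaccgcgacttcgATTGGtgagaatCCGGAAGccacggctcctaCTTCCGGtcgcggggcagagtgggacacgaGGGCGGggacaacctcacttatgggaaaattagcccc
Sfn, chr4:133602169-133602318, minus strand: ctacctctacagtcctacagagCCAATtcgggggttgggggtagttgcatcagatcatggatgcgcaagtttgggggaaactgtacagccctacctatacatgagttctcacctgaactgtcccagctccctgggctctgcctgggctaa

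A RefSeq start lay within 600 bases of the table's start for 212 members. In the 250 bases before it, CCAAT stood on either strand in 45.8% of these members, in 37.7% of 8824 multi-exon protein-coding genes and in 33.8% of 32851 RefSeq promoters. GGGCGG, the letters bound by SP1, stood in 56.1% of members, 65.9% of multi-exon genes and 32.7% of all promoters. TATAAA stood in 11.3% of members, 5.17% of multi-exon genes and 12.4% of all promoters. The ETS core CCGGAAG was about as common in members (15.6%) as in multi-exon genes (15.5%), against 6.91% of all promoters. GTAAGT, the letters of a 5′ splice site, stood in 5.66%, 3.62% and 6.31% of the same sets, and AATAAA, the polyadenylation signal, in 11.8%, 9.34% and 18.1%. TGACGTCA, which reads the same on both strands, stood in 2.83%, 3.07% and 1.55%. The median GC content of the 300 bases around the start was 60% in members, 62.3% in multi-exon genes and 52.7% in all promoters. Matches describe letters in these windows, not occupied sites.

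The deposited values are reads over a depth factor that the authors set per library, called depth-normalized reads here. Before that step the libraries held 26548710 and 16173640 exon reads in siZC3H4 and 14840637 to 18479834 in siNT, and 2648683 and 1448879 uaRNA reads in siZC3H4 against 996927 to 1195995 in siNT. Nascent exon reads of the siRNA target were higher, not lower, under its own label. Zc3h4 had 7285 and 6718 depth-normalized exon reads in siZC3H4, against 3465, 3610 and 3363 in siNT (log2 difference 1.01 ± 0.11, SE, limma adjusted p = 0.0043). Mature Zc3h4 RNA and protein were not measured here, so the knockdown was not tested. The siZC3H4 samples are therefore called the libraries labelled siZC3H4, and each direction rests on that label. Its adjusted p was 0.0578 without siZC3H4 replicate 2 and 0.0549 without siNT replicate 1. The 9 naive stem cell markers were all measured, summing to 85077 and 104288 in the libraries labelled siZC3H4 and 96353 to 118096 in siNT. The 4 listed endoderm markers summed to 5030 and 6076, against 7500 to 8846, nearly all of it Lama1 (4934 and 5954, against 7419, 8789 and 7522; -0.54 ± 0.13, limma adjusted p = 0.0724). The log2 differences of the other 3 were above 0 (0.64 for Gata4, 0.44 for Gata6 and 0.11 for Sox7), and none of the 4 passed. The 5 listed neural markers summed to 1950 and 1902, against 1317 to 1603, and none of the 4 tested passed. Of 6 fibroblast markers, Fn1 and Thy1 were listed (28045 and 29757, against 27917 to 32853), and 2 of 4 trophoblast markers (2183 and 2228, against 1876 to 2415). Their part in the results was not tested, and fewer cells of a type and less RNA per cell cannot be told apart.

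The members were shorter and less transcribed than spliced genes. Their transcript length ran from 339 to 11253 bases with a median of 2260, against a median of 2805 over the 11215 multi-exon protein-coding genes tested. Mean depth-normalized exon reads ran from 10.6 to 6556 with a median of 194, against 606 in multi-exon genes, and the median per kilobase of transcript was 90.7 against 214. Fewer members had a uaRNA region in the authors' table, 116 of 315 (36.8%), against 5654 of 11215 multi-exon genes (50.4%). No test was made of these differences between kinds of gene. Just inside the rule on low values were Gm9844 with a mean of 10.6 and Hist1h2ap with 10.6. Just outside were Prr23a2 with 9.96 and Olig1 with 9.84.

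Per kilobase of transcript, the non-histone members with the highest exon levels in siNT included regulators of early response and of RNA. Ier2, an immediate early gene, averaged 3084 reads per kilobase in the libraries labelled siZC3H4 and 3951 in siNT. Pcbp1, which binds poly(C) RNA, averaged 4217 and 3876. Mcts2, an imprinted retrocopy of Mcts1 inside an intron of H13, averaged 2243 and 2238 on the same scale. Epop, which joins Elongin BC to Polycomb repressive complex 2, averaged 1881 and 1816, and Sox2, the pluripotency factor, 1808 and 1730. The histone genes Hist1h2bp, Hist1h2an, H4f16 and Hist1h4n stood in the same range, between 1822 and 3381 in the libraries labelled siZC3H4 and between 2228 and 4056 in siNT.

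Not every member is an isolated single-exon gene. RefSeq held 303 of them, with a span within 20% of the table's for 238 and 2 times or more for 20, among them Iqck, Ndor1, Trmt13, Gpr137c and Ahnak2, where the table lists a single exon of a longer gene. Of the 315, 49 overlapped another gene of the table, 18 on the same strand and 32 on the opposite strand. All 18 lay inside their host, as Mcts2 does in H13, Kti12 in Txndc12, Eid3 in Txnrd1 and Yy2 in Mbtps2. An opposite-strand RefSeq start stood within 1 kb upstream of 47 members, of which 7 had a uaRNA region. Members lay on 20 chromosomes, with 31 on chromosome 2, 28 on chromosome 7 and 25 on chromosome X. Several are retrocopies with a near-identical parent gene, so how the authors' counting split shared reads bears on them and is not known here.

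Few members passed the test in exon reads. Each gene was tested on log2(value + 1) with limma over all 12482 genes with a mean of 10 or more, and "rose" or "fell" means a Benjamini-Hochberg adjusted p under 0.05. Of the 315 members 3 rose (0.952%) and 1 fell (0.317%), while 2.22% of all genes tested rose and 0.144% fell. At an unadjusted p under 0.05, 35 members were higher and 13 lower, against 1367 (11%) and 548 (4.39%) of all 12482 genes, much the same shares. On recovered reads edgeR called 3 rises and 2 falls among the members, against 2.47% and 0.24% of all genes, and DESeq2 called 11 and 5, against 4.24% and 1.17%. Both libraries labelled siZC3H4 lay above every siNT library for 56 members (17.8%, against 19.5% of all genes) and below every siNT library for 37 (11.7%, against 12.8%). The median log2 difference of the members was 0.00, with 159 above 0 and 156 below, against medians of 0.01 over all genes and 0.01 over multi-exon genes. Log2 differences of 253 members (80.3%) lay within 0.5 of 0, and their middle range ran between -0.21 and 0.29, against 88.6% and between -0.13 and 0.18 in multi-exon genes.

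**Figure D1:**
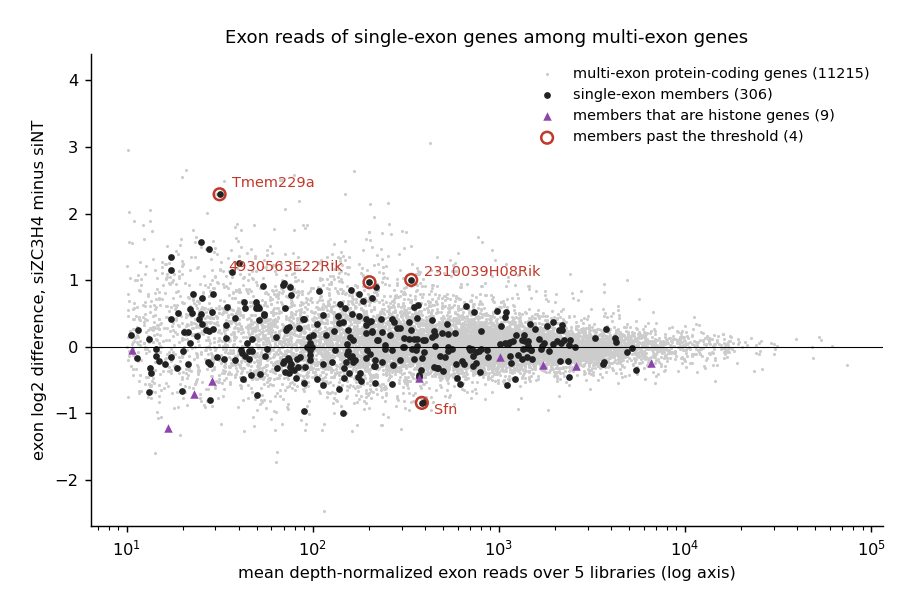
Exon log2 difference, siZC3H4 minus siNT, against mean depth-normalized exon reads over 5 libraries (log axis), for single-exon members in black, the 9 histone members as triangles and 11215 multi-exon genes in grey. The members scatter around 0 among the multi-exon genes, and the 4 circled ones passed the threshold.

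The gene with the largest exon rise was Tmem229a, a predicted transmembrane protein (chr6:24951141-24956465, mm10). It had 67.9 and 53.5 depth-normalized exon reads in the libraries labelled siZC3H4, against 15.0, 6.96 and 14.5 in siNT. The groups did not overlap, and the log2 difference was 2.29 ± 0.40 (SE; limma adjusted p = 0.023).

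The uncharacterized gene 2310039H08Rik (chr17:46772815-46773396, mm10) had 532 and 434 exon reads in the libraries labelled siZC3H4, against 286, 228 and 211 in siNT. Both libraries labelled siZC3H4 were above all 3 siNT libraries, and the log2 difference was 1.00 ± 0.19 (limma adjusted p = 0.031). This is the only one of the 4 with a tested uaRNA. Its uaRNA had 291 and 274 reads in the libraries labelled siZC3H4, against 237, 143 and 430 in siNT. Those values overlap, with siNT replicate 3 the highest, and the uaRNA did not pass the test (0.21 ± 0.27, limma adjusted p = 0.485).

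The uncharacterized gene 4930563E22Rik (chr11:72215212-72217743, mm10) had 290 and 279 exon reads in the libraries labelled siZC3H4, against 134, 127 and 179 in siNT. The log2 difference was 0.97 ± 0.21 (limma adjusted p = 0.0489), close to the threshold. It no longer passed without a filter on low values or with a minimum mean of 50.

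The fall was that of Sfn, which encodes 14-3-3 sigma, which in human cells is a p53 target that holds cells at the G2/M checkpoint (chr4:133600556-133601830, mm10). Sfn had 274 and 247 exon reads in the libraries labelled siZC3H4, against 472, 495 and 440 in siNT. Both libraries were below every siNT library, and the log2 difference was -0.85 ± 0.16 (limma adjusted p = 0.0281).

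**Figure D2:**
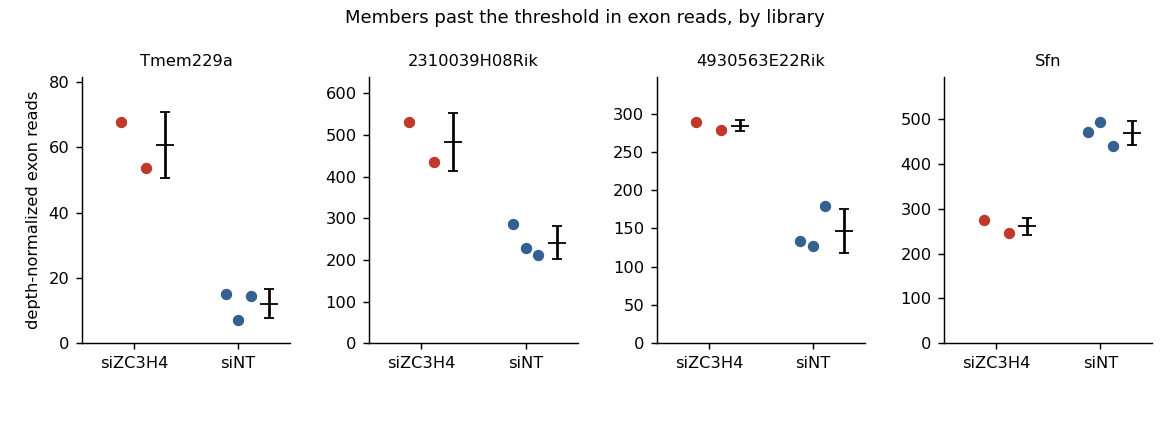
Depth-normalized exon reads of the 4 members past the threshold, with a point for each library, siZC3H4 left and siNT right, and a bar for the mean ± SD (n = 2 and n = 3). The 3 rises and the fall of Sfn show no overlap between the groups.

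These calls rest on few libraries. None of the 4 passed when siZC3H4 replicate 2, siZC3H4 replicate 3 or siNT replicate 1 was left out, and without siNT replicate 2 Tmem229a alone passed. Without siNT replicate 3, 15 members rose and 5 fell, against 5.42% and 1.11% of all genes tested. The counts over all genes moved in the same way: 676 rose without siNT replicate 3, and 10, 80 and 2 rose without siZC3H4 replicate 2, siZC3H4 replicate 3 and siNT replicate 1. The log2 difference of the 4 stayed between -0.92 and -0.77 for Sfn, 2.12 and 2.46 for Tmem229a, 0.86 and 1.15 for 2310039H08Rik and 0.87 and 0.99 for 4930563E22Rik wherever a call was lost by leaving out a library.

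Several members missed the threshold with groups that did not overlap. Amigo3, an adhesion protein of the immunoglobulin family, had 244 and 291 exon reads in the libraries labelled siZC3H4, against 569, 410 and 461 in siNT (-0.83 ± 0.19, limma adjusted p = 0.0551). It passed, as lower, with median-of-ratios or TMM scaling and with both count models. Slc25a2, a mitochondrial ornithine carrier, had 64.5 and 122 reads, against 187, 164 and 188 in siNT (-1.00 ± 0.28, limma adjusted p = 0.105). Klhl34, a kelch and BTB protein, had 325 and 278 reads, against 213, 165 and 118 in siNT (0.90 ± 0.25, limma adjusted p = 0.112). A730071L15Rik had 123 and 173 reads, against 78.0, 79.1 and 86.2 in siNT (0.84 ± 0.23, limma adjusted p = 0.108). DESeq2 called Slc25a2 as lower (DESeq2 adjusted p = 0.014) and A730071L15Rik as higher (DESeq2 adjusted p = 0.0428).

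Of the 62 members with a mean of 1000 or more, none was called by limma, edgeR or DESeq2, with 2 higher and 2 lower at an unadjusted p under 0.05. Calls were rare at this level in multi-exon genes too, where limma called 0.645% as rises and 0.0774% as falls, so a count of 0 among 62 does not set the members apart. Fem1a, a substrate receptor of a CUL2 ubiquitin ligase, had 5745 and 4548 reads in the libraries labelled siZC3H4, against 5255, 5967 and 4494 in siNT (-0.03 ± 0.15). Rbm15b, an RNA-binding partner of the m6A methyltransferase, had 4599 and 4795 reads, against 5116, 4699 and 5096 (-0.08 ± 0.11). Pcbp1 had 4421 and 4417 reads, against 3807, 3635 and 4744 (0.13 ± 0.14). Epop had 5035 and 3636 reads, against 5033, 4479 and 3044 (0.06 ± 0.22). Among these 4 genes the groups overlapped each time. Cenpb, the centromere protein that binds the CENP-B box, had 3404 and 3200 reads, against 4544, 3552 and 3582 (-0.23 ± 0.14). Sephs2, a selenophosphate synthetase, had 3458 and 3040 reads, against 4027, 3519 and 4160 (-0.26 ± 0.13). Both were lower without overlap and did not pass.

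The 9 histone members had a median log2 difference of -0.29, all below 0 and 6 below every siNT library, none past the threshold by limma, edgeR or DESeq2 (2 lower at an unadjusted p under 0.05). H4f16, the member with the most exon reads, had 5472 and 6325 in the libraries labelled siZC3H4, against 7162, 7203 and 6616 in siNT (-0.25 ± 0.12, limma adjusted p = 0.361). Without the 9, the median of the other 306 was 0.03. The 25 members on chromosome X had a median of -0.16, with 17 below 0, none past the threshold by limma, edgeR or DESeq2 (2 higher and 1 lower at an unadjusted p under 0.05).

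The transcription factor and receptor families among the members showed no exon call by limma. With 2.22% of all genes tested rising, lists of this size hold few calls in any case. Of 59 members in the lists, none passed with limma or edgeR, and 2 rose with DESeq2. At an unadjusted p under 0.05, 6 were higher and 2 lower, against 11% and 4.39% of all genes. The median log2 difference of the 59 was 0.02, as was that of 494 multi-exon relatives, of which 6 rose. The insulin receptor substrates gave no member under the rule.

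The immediate early genes, induced within minutes by growth factors and stress, had 10 members with a median of -0.11 and none past the threshold by limma, edgeR or DESeq2 or at an unadjusted p under 0.05. Libraries of 1 group lay far apart for Jun and Jund. Jun, a subunit of the AP-1 factor (chr4:95049034-95052196, mm10), had 507 and 1521 exon reads in the libraries labelled siZC3H4, against 593, 263 and 2258 in siNT (0.31 ± 0.76). Jund, its relative, had 422 and 867 reads, against 739, 445 and 1491 (-0.38 ± 0.45). In both genes replicate 3 was the highest of its group. Junb had 608 and 663 reads, against 633, 790 and 936 (-0.29 ± 0.18). Rhob, a small GTPase of endosomes, had 1173 and 1468 reads, against 979, 611 and 1263 (0.53 ± 0.26). Ier2 had 4140 and 5222 reads, against 5796, 4829 and 7369 (-0.35 ± 0.18).

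Of the SOX factors, which bind DNA through an HMG box, 7 were members, with a median of 0.14. Sox2 had 2553 and 4205 exon reads in the libraries labelled siZC3H4, against 2635, 2070 and 4997 in siNT (0.12 ± 0.34). Sox21 had 171 and 268 reads, against 119, 96.5 and 145 (0.85 ± 0.26, limma adjusted p = 0.148), and DESeq2 called it. Sox3, on chromosome X, had 122 and 85.1 reads, against 181, 169 and 134 (-0.64 ± 0.24, limma adjusted p = 0.238). Sox12 had 1351 and 1424 reads, against 1811, 1594 and 1366 (-0.19 ± 0.14). In all 5 of the 7 lay above 0, none passed with limma or edgeR, and 1 was higher and 1 lower at an unadjusted p under 0.05.

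The frizzled receptors, which take up Wnt ligands, had 6 members with a median of 0.24, 5 of them above 0, none past the threshold by limma, edgeR or DESeq2 and 2 higher at an unadjusted p under 0.05. Fzd7 had 1293 and 1115 exon reads in the libraries labelled siZC3H4, against 946, 717 and 846 in siNT (0.53 ± 0.16, limma adjusted p = 0.129). Fzd10 had 4682 and 3720 reads, against 3790, 3763 and 2961 (0.26 ± 0.15). Among 5 multi-exon relatives of the pathway the median was -0.22, with 1 above 0. The difference between these lists was not tested.

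The smaller lists gave no call by limma either. The POU factors (2 members), the forkhead factors (3), the HSP70 chaperones (3), the zinc finger genes (4) and the kelch and BTB genes (6) held no call by limma, edgeR or DESeq2. At an unadjusted p under 0.05 they held 1 gene in all, Klhl34. Foxd3, a forkhead factor of the epiblast, had 461 and 382 exon reads in the libraries labelled siZC3H4, against 230, 425 and 310 in siNT (0.43 ± 0.25). Hspa2, an HSP70 of germ cells, had 315 and 324 reads, against 336, 197 and 381 (0.12 ± 0.27). Among the G protein-coupled receptors, Gpr27 had 642 and 1059 reads, against 1798, 861 and 1201 (-0.58 ± 0.30), with siNT replicate 1 far above the others. Of the 2 protocadherins, Pcdhga7 had 105 and 93.7 reads, against 54.0, 39.1 and 60.6 (0.96 ± 0.27, limma adjusted p = 0.112).

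Among the imprinted genes and retrocopies, 7 members had a median of 0.01 and no call by limma, edgeR or DESeq2 or at an unadjusted p under 0.05. Mcts2 (chr2:152687184-152687946, mm10) had 1783 and 1640 exon reads in the libraries labelled siZC3H4, against 1684, 1643 and 1795 in siNT (0.00 ± 0.12). Cstf2t, a testis paralogue of a cleavage stimulation factor subunit, had 2120 and 2602 reads, against 2250, 1828 and 3038 (0.02 ± 0.20). Mkrn3, a makorin gene linked in human to the timing of puberty, had 412 and 506 reads, against 448, 393 and 524 (0.01 ± 0.18). Zrsr1, a retrocopy of a U2AF-related gene inside an intron of Commd1 on the opposite strand, had 385 and 677 reads, against 466, 322 and 958 (-0.04 ± 0.40).

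The 18 members inside a host on the same strand had a median of 0.11 and no call by limma, edgeR or DESeq2, with 2 higher at an unadjusted p under 0.05. The hosts of Papolb and Chmp1b passed the test where these members did not, a difference that was not tested. Papolb, a poly(A) polymerase of the testis, had 183 and 205 exon reads in the libraries labelled siZC3H4, against 135, 108 and 177 in siNT (0.49 ± 0.24). Its host Radil, a Rap effector, rose (0.93 ± 0.19, limma adjusted p = 0.0396). Chmp1b, an ESCRT-III subunit, had 267 and 449 reads, against 273, 221 and 539 (0.12 ± 0.36), while its host Gnal, a G protein subunit, rose (1.25 ± 0.26, limma adjusted p = 0.0409). How far reads of a host's unspliced RNA entered a member's count cannot be told apart here.

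Replicates of a group differed more often in the members than in multi-exon genes. The median of each library's deviation from the 5-library mean (log2) was 0.03 and 0.03 in the libraries labelled siZC3H4 and 0.05, -0.22 and 0.09 in siNT, against -0.02 and 0.05 and then -0.05, -0.03 and 0.05 in multi-exon genes. The low library was siNT replicate 2. Among the 199 members with a mean of 100 or more, siNT replicate 3 was 2-fold or more above siNT replicate 2 in 20 (10.1%), against 1.60% of 9582 multi-exon genes with the same minimum. Between siZC3H4 replicates 3 and 2 the shares were 4 members (2.01%) and 0.25%. No test was made of these shares, since the genes share the libraries.

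Jun led these genes, 3.00-fold higher in siZC3H4 replicate 3 than in siZC3H4 replicate 2 and 8.54-fold higher in siNT replicate 3 than in siNT replicate 2. Ahnak2, a giant scaffold protein, followed with 2.22-fold and 3.94-fold, and Jund with 2.05-fold and 3.34-fold. Otud6a, a deubiquitinase, gave 2.07-fold and 3.20-fold, Zrsr1 1.75-fold and 2.97-fold, and Sox2 1.65-fold and 2.41-fold. Exceptions were Ier5, with 0.856-fold and 2.43-fold, and Rnf113a2, with 0.957-fold and 2.11-fold. The standard error of the log2 difference between the groups was 0.76 for Jun, 0.51 for Ahnak2, 0.45 for Jund and 0.47 for Otud6a. What set these replicates apart was not tested.

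**Figure D3:**
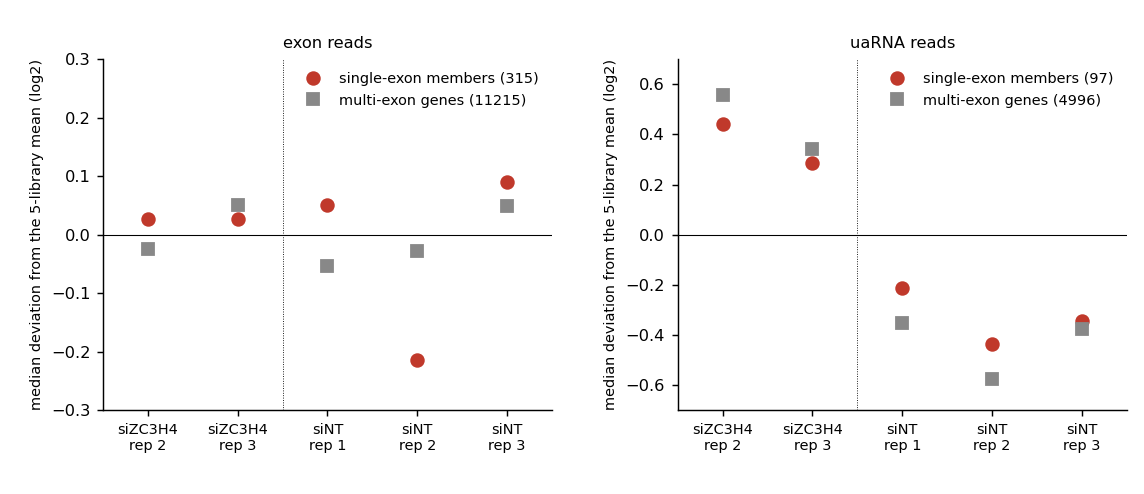
Median deviation of each library from the 5-library mean (log2) for single-exon members and multi-exon genes, exon reads left and uaRNA reads right, with the libraries labelled siZC3H4 before siNT on each axis. In exon reads siNT replicate 2 lies at -0.22 for members, and in uaRNA reads both libraries labelled siZC3H4 lie above all siNT libraries for both kinds of gene.

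The uaRNAs of the members, unlike their exons, were mostly higher in the libraries labelled siZC3H4. Of the 116 uaRNA regions, 97 had a mean of 10 or more and were tested among 5124 uaRNAs, and the other 19, with too few reads, were not. Of the 97, 50 rose (51.5%), 3 fell (3.09%) and 44 did not pass, while 62.1% of all uaRNAs tested rose and 1.13% fell. Both libraries labelled siZC3H4 lay above every siNT library for 59 (60.8%, against 73.7% of all uaRNAs) and below for 5 (5.15%, against 2.11%). The median log2 difference was 0.64, against 0.88 over all uaRNAs and 0.88 over those of multi-exon hosts. The members' share of rises thus lay below the background. The difference between kinds of host was not tested.

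The direction depends on the scale. With uaRNA reads scaled on themselves by the median of ratios, 7 members rose and 20 fell, against 10.3% and 11.7% of all uaRNAs, and the members' median was -0.23 against 0.00 over all uaRNAs. The count models scale them likewise: edgeR called 8 rises and 22 falls, against 11.9% and 12.1% of all uaRNAs, and DESeq2 6 and 20, against 9.45% and 11.6%. Rescaling shifts the log2 differences of all uaRNAs nearly alike. The lower position of the members' uaRNAs relative to the rest therefore carries over from scale to scale and is not a second result. The depth factors were the same in both tables, and all directions below use them unless another scale is named.

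More uaRNA rises were called among members of higher exon level. Of members with mean exon reads of 10 to 100, 5 of 16 uaRNAs rose; at 100 to 1000 it was 19 of 45, and at 1000 or more 26 of 36. In multi-exon hosts the shares at the same levels were 50.6%, 57.7% and 68.3%. By the level of the uaRNA itself, 15 of 34 rose at a mean of 10 to 50, 21 of 35 at 50 to 200 and 14 of 28 at 200 or more, against 51.9%, 68.3% and 69.2% in multi-exon hosts. All 3 falls were among the 28 with the most uaRNA reads.

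The largest rise was that of Kctd11, a BTB adaptor that acts against Hedgehog signalling (chr11:69878265-69881522, mm10). Its uaRNA had 342 and 214 depth-normalized reads in the libraries labelled siZC3H4, against 45.0, 40.9 and 30.7 in siNT. The log2 difference was 2.79 ± 0.29 (limma adjusted p = 8.67e-12). Its exon reads were 43.6 and 43.0, against 34.0, 32.2 and 20.5 in siNT (0.60 ± 0.32, limma adjusted p = 0.441). The lengths of the uaRNA regions are not given in the sources used here, so uaRNA and exon levels are not compared.

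Mcts2, whose promoter is printed above with a CCAAT on the antisense strand and an ETS core, had 1855 and 1371 uaRNA reads in the libraries labelled siZC3H4, against 318, 272 and 342 in siNT. Every library labelled siZC3H4 was over 4 times every siNT library (2.36 ± 0.22, limma adjusted p = 2.6e-13). The uaRNA lies antisense to the host H13, whose own exon reads were 1586 and 1642, against 1475, 1474 and 1418 (0.15 ± 0.12). Rassf10, of the Ras association family, had 24.9 and 19.1 uaRNA reads, against 3.00, 3.48 and 3.41 in siNT, where a few reads set the level (2.41 ± 0.55, limma adjusted p = 0.000181).

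Hnrnpa0, an RNA-binding protein of the hnRNP A/B group (chr13:58125879-58128550, mm10), had 2153 and 1707 uaRNA reads in the libraries labelled siZC3H4, against 657, 546 and 561 in siNT. No siNT library came near the lower of the 2 (1.71 ± 0.21, limma adjusted p = 5.47e-10). Its exon reads did not pass, at 1920 and 2421 against 2016, 1557 and 2816 (0.06 ± 0.22). Jun had 235 and 282 uaRNA reads, against 81.0, 52.2 and 116 in siNT (1.69 ± 0.28, limma adjusted p = 8.21e-07). The uaRNA separated the groups where the Jun exon reads did not. A RefSeq start on the opposite strand, that of Junos, lies 121 bases upstream of Jun, so the region may hold reads of that gene.

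Fzd7 had 84.3 and 65.0 uaRNA reads in the libraries labelled siZC3H4, against 23.0, 15.7 and 21.3 in siNT (1.86 ± 0.35, limma adjusted p = 1.22e-05). Arl4c, a small GTPase, had 45.3 and 41.1 reads, against 16, 6.96 and 17.1 (1.71 ± 0.41, limma adjusted p = 0.000385). Hspa1b, a stress-induced HSP70, had 103 and 51.6 reads, against 16, 28.7 and 23.9 (1.67 ± 0.36, limma adjusted p = 7.74e-05), and did not pass without siZC3H4 replicate 2. In these genes too the groups were apart, while none of their exon values passed.

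The 3 rises with the most uaRNA reads were those of Pcbp1, Hexim1 and Ier2. Pcbp1 had 3070 and 3542 uaRNA reads in the libraries labelled siZC3H4, against 1792, 1565 and 1890 in siNT (0.92 ± 0.19, limma adjusted p = 5.57e-05). Hexim1, which holds P-TEFb inactive together with 7SK RNA, had 2440 and 2263 reads, against 1385, 1163 and 1602 (0.78 ± 0.20, limma adjusted p = 0.000703). Ier2 had 1820 and 1532 reads, against 794, 989 and 821 (0.95 ± 0.20, limma adjusted p = 7.16e-05). These 3 did not pass when uaRNAs were scaled on themselves by the median of ratios, with -0.12 for Hexim1, 0.02 for Pcbp1 and 0.05 for Ier2. The rises of Kctd11, Mcts2, Hnrnpa0, Fzd7 and Rassf10 passed on that scale too, while those of Arl4c and Hspa1b did not. Jun lay at the threshold: it did not pass there (limma adjusted p = 0.0501) or with DESeq2 (adjusted p = 0.0512), and it passed with TMM scaling and with edgeR.

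**Figure D4:**
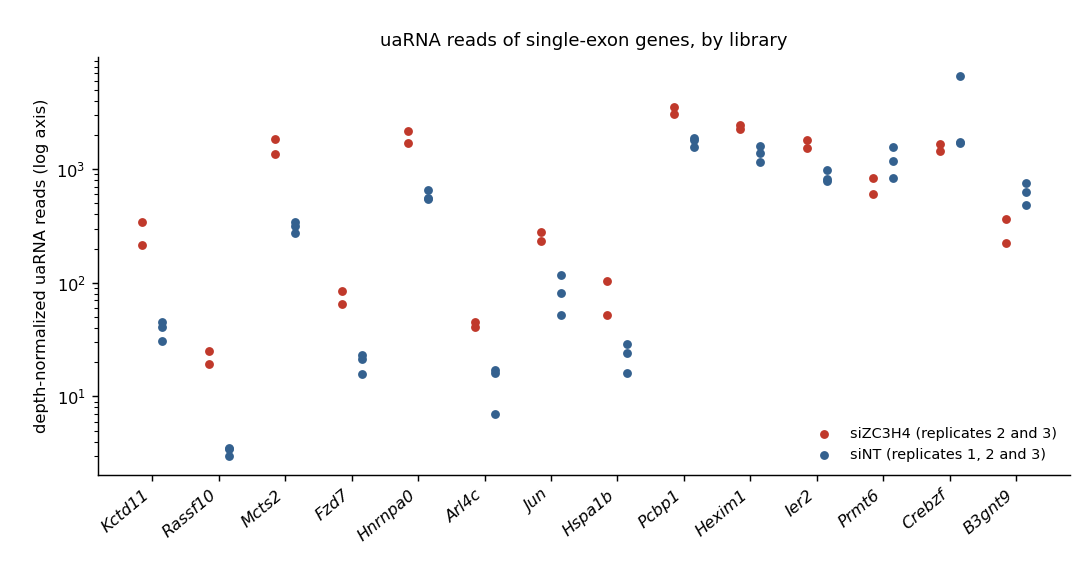
Depth-normalized uaRNA reads (log axis) of 14 members, with a point for each library, siZC3H4 left and siNT right of each tick. The first 8 are the largest rises, followed by Pcbp1, Hexim1 and Ier2 with the most reads among those that rose, and by the 3 falls, where siNT replicate 1 of Crebzf stands alone at 6580.

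The uaRNAs of B3gnt9, Prmt6 and Crebzf fell. B3gnt9, a glycosyltransferase gene (chr8:105252638-105254722, mm10), had 224 and 362 uaRNA reads in the libraries labelled siZC3H4, against 758, 488 and 626 in siNT. The groups did not overlap (-1.10 ± 0.23, limma adjusted p = 5.13e-05). B3gnt9 overlaps D230025D16Rik on the opposite strand, whose exon reads were 4220 and 4748, against 5213, 5369 and 4406 in siNT (-0.15 ± 0.13). Reads of that gene in the B3gnt9 region cannot be told apart from a uaRNA here.

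Prmt6, an arginine methyltransferase of histone H3, is among the 20 members with a RefSeq span 2 times or more the listed span. It had 605 and 835 uaRNA reads in the libraries labelled siZC3H4, against 1174, 828 and 1554 in siNT. The groups overlapped by a small margin, and the fall (-0.69 ± 0.22, limma adjusted p = 0.00541) was lost without siZC3H4 replicate 2 (-0.46) or without siNT replicate 3 (-0.47). Crebzf, a bZIP factor that binds HCF-1, had 1458 and 1655 uaRNA reads, against 6580, 1743 and 1696 in siNT. The fall (-0.79 ± 0.26, limma adjusted p = 0.00728) came with 1 library, siNT replicate 1. Without it the log2 difference was -0.15 and did not pass, nor did it without siZC3H4 replicate 2 (-0.70) or siZC3H4 replicate 3 (-0.88). Exon reads of Crebzf were 1217 and 1432, against 1499, 1348 and 1564 (-0.15 ± 0.13), with no such library.

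By role, 5 of 7 tested uaRNAs of immediate early members rose, those of Ier2, Jun, Jund, Junb and Rhob, against 3 of 5 in multi-exon relatives. Over all uaRNAs 62.1% rose, and no list was tested against that share. Junb had 531 and 423 uaRNA reads in the libraries labelled siZC3H4, against 228, 258 and 245 in siNT (0.96 ± 0.23). Both SOX members with a tested uaRNA rose, Sox2 with 602 and 593 reads against 311, 288 and 340 (0.93 ± 0.22) and Sox12 with 339 and 325 against 160, 166 and 185 (0.96 ± 0.24). Of 4 imprinted or retrocopy members 3 rose, among them Zrsr1, with 701 and 750 uaRNA reads against 403, 537 and 526 in siNT (0.58 ± 0.22, limma adjusted p = 0.0174). Zrsr1 lies inside Commd1 on the opposite strand, and a RefSeq start of Commd1 stood 111 bases upstream. Reads of Commd1 in the Zrsr1 region cannot be told apart from a uaRNA here. Over all lists 13 of 20 tested uaRNAs of members rose, against 143 of 237 in multi-exon relatives. With edgeR, which scales the uaRNAs on themselves, 4 of the 20 rose and 4 fell.

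Of the 50 members whose uaRNA rose and the 3 whose uaRNA fell, none had exon reads past the threshold by limma. Only 1 of the 97 members with a tested uaRNA had an exon call at all (1.03%, against 2.22% of all genes), so this count of 0 rests on a single call. Across the 97 members with both values, Pearson's r between the uaRNA and the exon log2 differences was 0.145 and Spearman's rho 0.125, as a description over genes that share 5 libraries. Among these 97, 50 exon differences were above 0 and 47 below, while 81 uaRNA differences were above 0 and 16 below. At an unadjusted p under 0.05, 9 of the 97 exons were higher and 6 lower, against 11% and 4.39% of all genes. On their exon reads edgeR called 1 rise and 1 fall, against 2.47% and 0.24% of all genes. DESeq2 called 4 rises and 2 falls, against 4.24% and 1.17%.

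**Figure D5:**
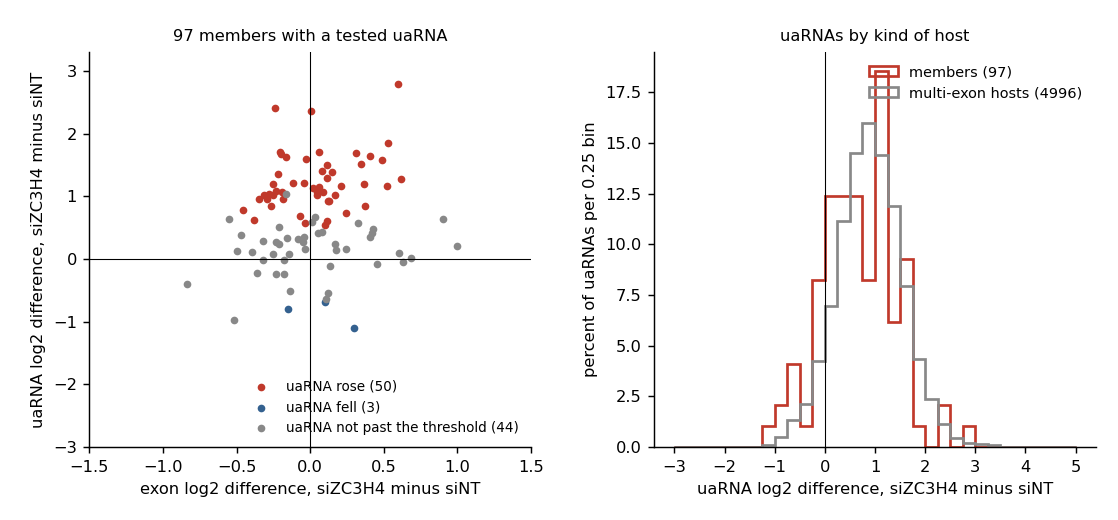
Left, uaRNA against exon log2 difference, siZC3H4 minus siNT, for the 97 members with a tested uaRNA, coloured by the uaRNA call. Right, the percent of uaRNAs in each 0.25 bin of log2 difference, members against 4996 multi-exon hosts: the members' median is 0.64, against 0.88, and exon differences of the same genes centre near 0.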

How the data were processed

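TT-seq libraries came from 4sU-labelled RNA and a strand-specific kit for total RNA (labels' protocols). The submitters' processing notes name the builds mm10 and dm6, and as tools cutadapt 1.14, STAR, DESeq2 and featureCounts, in no order. The authors deposited depth-normalized signal in a table of exons and a table of uaRNA regions, per the file headers. Each signal value was a whole read count over 1 factor per library (1.767 and 1.046 in siZC3H4, 1, 1.15 and 1.172 in siNT), and 100% of values came out whole within 0.01 reads. How these factors were set is not stated in the labels or headers.

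Log2(value + 1) was tested with limma 3.58.1 in R 4.3.3 (lmFit, eBayes with trend, siZC3H4 minus siNT, no block) over all rows with a mean of 10 or more, adjusted by Benjamini-Hochberg at 0.05. The fold is on that scale, which understates changes of low features. Moderated degrees of freedom were 9.22 for exons and 67.5 for uaRNAs, so single uaRNA p-values lean on the spread borrowed from all uaRNAs. Levels are depth-normalized reads, and ± after a log2 difference is limma's SE. The script was tested on simulated data. edgeR 4.0.16 and DESeq2 1.42.0 were run on the recovered reads, with TMM and median-of-ratios scaling, other pseudocounts (0.5 and 5), other filters, a replicate block and each library left out as further alternatives. Libraries of 1 group differed beyond counting noise (chi-square per degree of freedom 16.5 or higher for exons, 4.49 or higher for uaRNAs).

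Genes were named by rule: members past the threshold, the 10 with the most exon reads, the 5 highest and 5 lowest log2 differences at a mean of 100 or more, up to 4 per list, and for uaRNAs the 8 largest rises without overlap, every fall and the 5 with the most reads. Those named for overlaps, for replicate differences, or as further examples were chosen after their values were seen. The members and lists were chosen with earlier results of these data known. Promoters came from RefSeq (GRCm38.p6, the assembly of mm10). Figures were drawn with matplotlib 3.10.9. A gene that the rule names is not reported here.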

Additional observations from a re-analysis of the deposited data

How the results depend on the processing

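The exon median of the members stayed between -0.09 and 0.10 under every alternative run. Counts of exon calls moved: 1 rose at a minimum mean of 50 (229 over all genes at that minimum). Under a replicate block, which takes up siNT replicate 1, 57 rose and 17 fell (1530 and 830 over all 12482 genes). With DESeq2 11 rose and 5 fell (529 and 146 over all genes). With median-of-ratios scaling, TMM and edgeR 2 fell each (29, 27 and 30 over all genes). Leaving out a library gave 0 to 15 rises and 0 to 5 falls. For uaRNAs, rises numbered 7 with median-of-ratios scaling, 8 with TMM, 8 with edgeR and 6 with DESeq2, and falls 20, 20, 22 and 20, with medians of -0.23, -0.21, -0.24 and -0.25. These settings scale the uaRNAs on themselves. Leaving out a library gave 31 to 49 rises, 1 to 3 falls and medians of 0.56 to 0.76. The uaRNA of Hexim1 turned to -0.12 with median-of-ratios scaling, -0.10 with TMM, -0.11 with edgeR and -0.13 with DESeq2.

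Replicate numbers are shared by 2 pairs of libraries, and the labels do not say what a number stands for. Deviations of same-numbered libraries correlated at 0.528 and 0.618 over exons and at 0.376 and 0.426 over uaRNAs. The deviations of the 2 libraries labelled siZC3H4 mirror each other. Crossing numbers 2 and 3 therefore gave -0.618 and -0.528 over exons by construction, and the values are not independent. With the block, 50 uaRNAs of members rose and 2 fell, with a median of 0.76, and over all genes 1530 exons rose and 830 fell. Among the listed genes, the block gave exon rises for, among others, Rhob (0.58), Fzd7 (0.62), Fzd8 (0.34), Fzd10 (0.32), Sox21 (0.85), Foxd1 (0.86), Klhl34 (1.10) and Pcdhga7 (1.01), and falls for Ier2 (-0.36), Jund (-0.43), Sox3 (-0.56) and Gpr27 (-0.30), and it ended the uaRNA call of Crebzf (-0.15). Number 1 occurs only in siNT, so the block takes up siNT replicate 1 and the group difference rests on replicates 2 and 3. The members' medians under the block, 0.04 for exons and 0.76 for uaRNAs, are those without siNT replicate 1. The value of Crebzf (-0.15) is likewise the one without that library. Any further cause of the changes was not tested. Of 675 exon values of named genes that passed in neither fit, 57 changed sign. The comparison without members of near-identical protein was not run, since no protein sequences were used here. Leaving out overlapping members, the 9 histone genes or members of longer RefSeq span kept 3 exon rises and 1 fall. In uaRNA reads 43 of 82 rose and 2 fell without overlapping members. Without members of longer RefSeq span 50 of 94 rose and 2 fell, and leaving out the histone genes changed neither count. Values are limited by 2 and 3 libraries a group and, for low uaRNAs, by a few reads.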
